A study of Mus musculus with 4 samples.

Results

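Saa3 and 6 other acute-phase genes were followed in bulk RNA sequencing libraries of PMN-MDSCs, the neutrophil-like (polymorphonuclear) class of myeloid-derived suppressor cells, sorted from neonatal spleen. The 7 genes are Saa1, Saa2, Saa3, Hp, Lrg1, Orm1 and Pglyrp1, out of 28585 genes with values. They were found by gene symbol, and each symbol matched 1 gene identifier. The set was chosen by the FPKM values of Saa3, which were lower in both Dhps cko libraries than in both Dhps flox libraries, so that difference is described here without a test. The question was whether other acute-phase genes that neutrophils express followed Saa3.

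The data were 4 libraries of sorted PMN-MDSCs from pups on postnatal day 7, 2 labelled Dhps cko and 2 labelled Dhps flox. Dhps flox pups were Dhps fl/fl, and the paper describes the pups of both groups as littermates. Dhps cko pups were Dhps fl/fl and carried Lysm cre, so the floxed alleles were shared by both groups and the Cre was not. Dhps encodes deoxyhypusine synthase, the enzyme that makes hypusine on the translation factor eIF5A. Lysm cre drives Cre recombinase from the Lyz2 locus in neutrophils, monocytes and macrophages, so a difference may arise in any of these cells before the sort. The strain background was C57BL/6J, and the sort kept cells that were CD11b+, Ly6G+ and low or negative for Ly6C. The labels do not say whether a library came from 1 pup or from several, so the p-values measure only the spread between these libraries.

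Acute-phase proteins are secreted proteins whose blood level changes in infection and injury. Most come from the liver, where interleukin-6 and interleukin-1 act through STAT3, C/EBP and NF-kB factors, but macrophages, fat, epithelium and granulocytes make some of them. SAA1, SAA2 and SAA3 are serum amyloid A proteins, small proteins that bind lipid and retinol. In the mouse, SAA1 and SAA2 are mainly made in the liver and SAA3 mainly outside it, in macrophages among other cells. Neutrophils make haptoglobin (Hp), leucine-rich alpha-2-glycoprotein 1 (Lrg1) and peptidoglycan recognition protein 1 (Pglyrp1) during their maturation and store the proteins in granules.

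The 3 Saa genes lie together on chromosome 7 of GRCm38 within 42.3 kb: Saa3 (ENSMUSG00000040026) from 46711998 to 46715700, Saa1 (ENSMUSG00000074115) from 46740497 to 46742980 and Saa2 (ENSMUSG00000057465) from 46751790 to 46754313. Pglyrp1 (ENSMUSG00000030413) is on the same chromosome, from 18871331 to 18890459. Hp (ENSMUSG00000031722) lies on chromosome 8 from 109575128 to 109579172, Lrg1 (ENSMUSG00000037095) on chromosome 17 from 56119678 to 56122001, and Orm1 (ENSMUSG00000039196) on chromosome 4 from 63344560 to 63348163. No exon base of any of the 7 genes is shared with an exon of another gene in GENCODE M21, which may not be the annotation behind the deposited values.

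Promoter sequences are given for Saa3, for its barely detected neighbour Saa1 and for Pglyrp1, a gene that differed from Saa3 in direction, so that their letters can be compared. The promoter table used here, from RefSeq (GRCm38.p6), matched 5 of the 7 genes, and the 250 bases before the RefSeq start are given 5′ to 3′ on the strand of the gene. This start can differ from the GENCODE spans given above: the Pglyrp1 window lies inside its span, and the Saa3 window overlaps its span. Capitals mark matches, on either strand, to the C/EBP letters TTNNGNAA and to the NF-kB letters (GG, any 3 bases, then TTTCC), which were chosen with these windows in view.
Saa3, chr7:46715677-46715926, minus strand: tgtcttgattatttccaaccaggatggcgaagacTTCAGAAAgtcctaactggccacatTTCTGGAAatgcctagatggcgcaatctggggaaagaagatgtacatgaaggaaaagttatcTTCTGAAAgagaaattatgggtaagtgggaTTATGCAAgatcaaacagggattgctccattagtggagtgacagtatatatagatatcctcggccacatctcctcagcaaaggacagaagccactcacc
Saa1, chr7:46742981-46743230, minus strand: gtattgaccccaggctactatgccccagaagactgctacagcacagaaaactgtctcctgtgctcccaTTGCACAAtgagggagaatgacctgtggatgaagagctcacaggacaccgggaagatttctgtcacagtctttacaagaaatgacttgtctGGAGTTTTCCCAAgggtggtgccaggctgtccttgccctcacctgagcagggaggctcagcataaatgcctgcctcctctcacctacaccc
Pglyrp1, chr7:18884440-18884689, plus strand: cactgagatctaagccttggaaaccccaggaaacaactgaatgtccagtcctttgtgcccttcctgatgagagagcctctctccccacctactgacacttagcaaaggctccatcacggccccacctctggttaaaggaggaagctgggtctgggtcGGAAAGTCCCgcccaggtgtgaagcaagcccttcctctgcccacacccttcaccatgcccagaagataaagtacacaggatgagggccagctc

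The Saa3 window held 4 matches to the C/EBP letters, at bases -216, -191, -129 and -99 counted from the base before the start as -1, and none to the NF-kB letters. The Saa1 window held 2 C/EBP matches, at -182 and -86, and 1 NF-kB match at -91 that overlaps the second of them and is printed with it as a single run of capitals. Saa2 held 1 C/EBP match, Pglyrp1 held 1 NF-kB match at -93, and Lrg1 held neither. C/EBP letters occur in 36.8% and NF-kB letters in 4.63% of the 32851 promoter windows of this length. Neither the STAT letters TTCNNNGAA (7.02% of windows) nor the TATA letters TATAAA (12.4%) were found in the 5 windows. These are matches of letters, and no binding was measured in these libraries. The Saa1 and Saa2 windows were 94.8% identical, and those of Saa1 and Saa3 48.9%.

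Values are FPKM, the fragments of a gene divided by the length of its transcript and scaled to the mapped fragments of the library, so levels can be compared between genes. The libraries were alike in size, with FPKM sums of 304281 to 319286 and about 29100000 to 32500000 mapped fragments, an estimate from the steps between low values. Dhps was at 2.38 and 2.59 FPKM in Dhps cko and at 3.57 and 3.11 in Dhps flox. The Dhps cko mean was 74.4% of the Dhps flox mean. FPKM per gene do not show which exons or cells the reads came from, so whether intact transcript remained was not tested. The sorted cells carried the 10 neutrophil markers used for the check, each at 75.46 FPKM or more in every library, with S100a9 highest at 24504 to 28033 FPKM.

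Saa3 had the largest difference between genotypes among the 5 genes of the set that were measurable in every library. It was at 6.30 FPKM in Dhps cko replicate 1, 4.38 in Dhps cko replicate 2, 16.14 in Dhps flox replicate 1 and 16.87 in Dhps flox replicate 2. The Dhps flox libraries lay close to each other and above both Dhps cko libraries. The means were 5.34 ± 1.36 FPKM (SD, n = 2) in Dhps cko and 16.5 ± 0.516 FPKM (SD, n = 2) in Dhps flox, and the Dhps cko mean was 32.4% of the Dhps flox mean. For the 4 pairs of single libraries this ratio ran from 26% to 39.0%. On the log2(FPKM + 0.1) scale the difference was -1.63, and 0.518% of the 17948 genes tested had a difference as low or lower. Saa3 was chosen by this same difference, so the share only describes its place and is not a test. The values correspond to about 114 and 77 fragments in Dhps cko and 271 and 272 in Dhps flox. In bulk samples, fewer cells that express a gene and less RNA per cell cannot be told apart.

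Saa1 was absent or nearly absent outside 1 library. It was listed at 0 FPKM in both Dhps cko libraries, at 1.22 in Dhps flox replicate 1 and at 0.02 in Dhps flox replicate 2. The first of the Dhps flox values corresponds to about 23 fragments, whereas 0.02 FPKM is less than a single fragment would give. The 1.22 FPKM of 1 library therefore carried the whole difference, and Saa1 entered the comparison only through it. The adjusted p was 0.787 (limma), and without Dhps flox replicate 1 the gene fell under the filter of a mean of 0.1 FPKM.

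The library with Saa1 was also the highest in some epithelial transcripts, but not in the intestinal marker list as a whole. Epcam, Krt8 and Cdh1, which encode proteins of epithelial cells and were singled out of that list after their values were seen, summed to 13.75 FPKM in Dhps flox replicate 1, against 1.73 in Dhps flox replicate 2 and 4.6 and 3.1 in the Dhps cko libraries. Krt8 alone was at 8.85 FPKM there and at 0.90 to 2.63 in the other libraries. The part of epithelial RNA in the value of Saa1 was not tested. Over its 12 genes, all detected, the list summed to 44.7 and 29.7 FPKM in Dhps cko and 39.2 and 17.1 in Dhps flox, so the sum was highest in Dhps cko replicate 1. Fabp1, Fabp2, Alpi, Apoa4 and Reg3b, genes of absorptive and other intestinal epithelium, were higher in both Dhps cko libraries, and 0 of the 12 were lower, where 20.0% and 16.0% of all genes were. Alpi, an intestinal alkaline phosphatase gene, was at 7.39 and 5.21 FPKM in Dhps cko and 2.26 and 2.17 in Dhps flox.

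**Figure D1:**
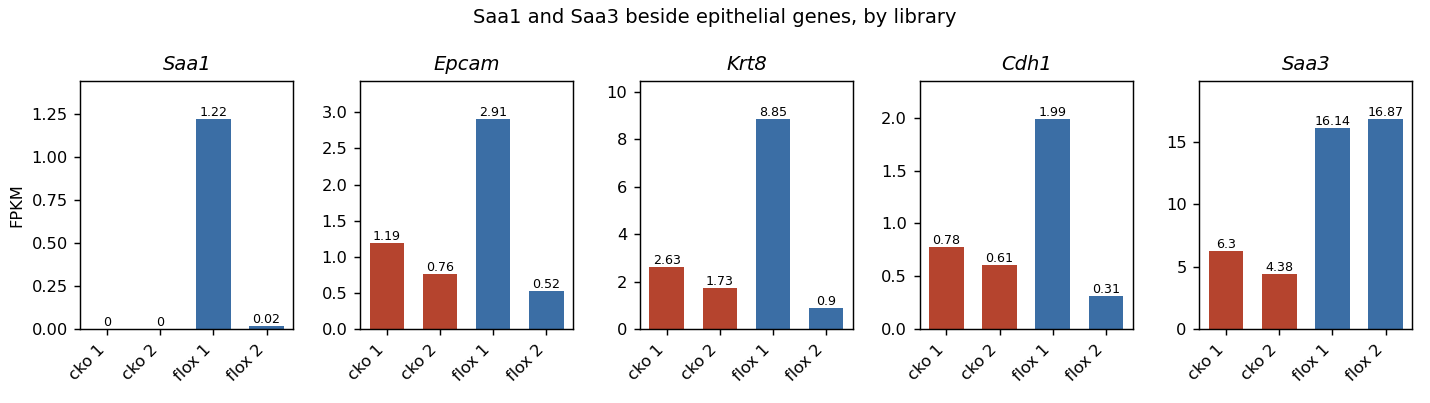
FPKM of Saa1, of Epcam, Krt8 and Cdh1 (3 of 12 intestinal markers, picked after their values were seen) and of Saa3 in each of the 4 libraries (bars, 1 library each; red, Dhps cko; blue, Dhps flox). Saa1 and these 3 genes are highest in Dhps flox replicate 1, though the sum of all 12 markers is not, while Saa3 is at 16.14 and 16.87 FPKM in both Dhps flox libraries.

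Saa2 was not measurable. It was at 0.02 and 0 FPKM in Dhps cko and at 0.01 and 0 in Dhps flox, each less than the value of 1 fragment, and it did not pass the filter. The Saa1 and Saa2 transcripts were 93.9% identical, with a longest shared run of 99 bases, so their reads could have been split between them, but at these levels this involves at most a few fragments outside Dhps flox replicate 1. Saa3 shared 61.6% of aligned bases with Saa1 and a run of at most 58 bases. The fourth gene of the locus, Saa4, was listed at 0 in all 4 libraries. Saa3 accounted for 99.7% and 100% of the summed Saa FPKM in Dhps cko and for 92.9% and 99.9% in Dhps flox, so the PMN-MDSC level of the family was in effect that of Saa3.

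Orm1, which encodes the lipocalin alpha-1-acid glycoprotein 1, showed no separation of the genotypes. It was at 47.56 and 40.80 FPKM in Dhps cko and at 44.53 and 40.52 in Dhps flox, and the groups overlapped. The log2 fold change was 0.05 (95% interval -0.20 to 0.30, adjusted p = 0.947 from limma), which leaves out a difference of the size seen for Saa3. Its paralogs were lower. Orm2 was at 3.90 and 2.32 FPKM in Dhps cko and 3.29 and 3.37 in Dhps flox, and Orm3 at 3.83 and 3.21 against 4.24 and 4.01. The Orm1 transcript was 91.0% identical to that of Orm2 and 86.1% to that of Orm3, so the division of reads among them is uncertain. The sum of the family was 55.29 and 46.33 FPKM in Dhps cko and 52.06 and 47.90 in Dhps flox, and overlapped likewise.

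Hp, Lrg1 and Pglyrp1 lay on the other side from Saa3. All 3 were somewhat higher in both Dhps cko libraries than in both Dhps flox libraries. Hp, whose protein binds free hemoglobin, was at 693.40 and 707.47 FPKM in Dhps cko and at 613.05 and 659.79 in Dhps flox. The Dhps cko mean was 110% of the Dhps flox mean, with a log2 fold change of 0.14 (standard error 0.065, 95% interval -0.03 to 0.31, adjusted p = 0.766 from limma). The value of Hp was 0.09 without Dhps flox replicate 1, and turned to -0.04 when the libraries were scaled by quantiles.

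Lrg1, a secreted glycoprotein that modulates TGF-beta signalling in endothelium, was at 141.35 and 130.03 FPKM in Dhps cko and at 113.46 and 123.83 in Dhps flox. The lowest Dhps cko library exceeded the highest Dhps flox library by a narrow margin. The Dhps cko mean was 114% of the Dhps flox mean, with a log2 fold change of 0.19 (standard error 0.074, 95% interval 0.00 to 0.38, adjusted p = 0.706 from limma).

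Pglyrp1, a granule protein that binds bacterial peptidoglycan, was at 308.12 and 324.07 FPKM in Dhps cko and at 278.84 and 282.65 in Dhps flox. The spread within each genotype was smaller than the gap between them. The Dhps cko mean was 113% of the Dhps flox mean, with a log2 fold change of 0.17 (standard error 0.056, 95% interval 0.03 to 0.31, adjusted p = 0.646 from limma).

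**Figure D2:**
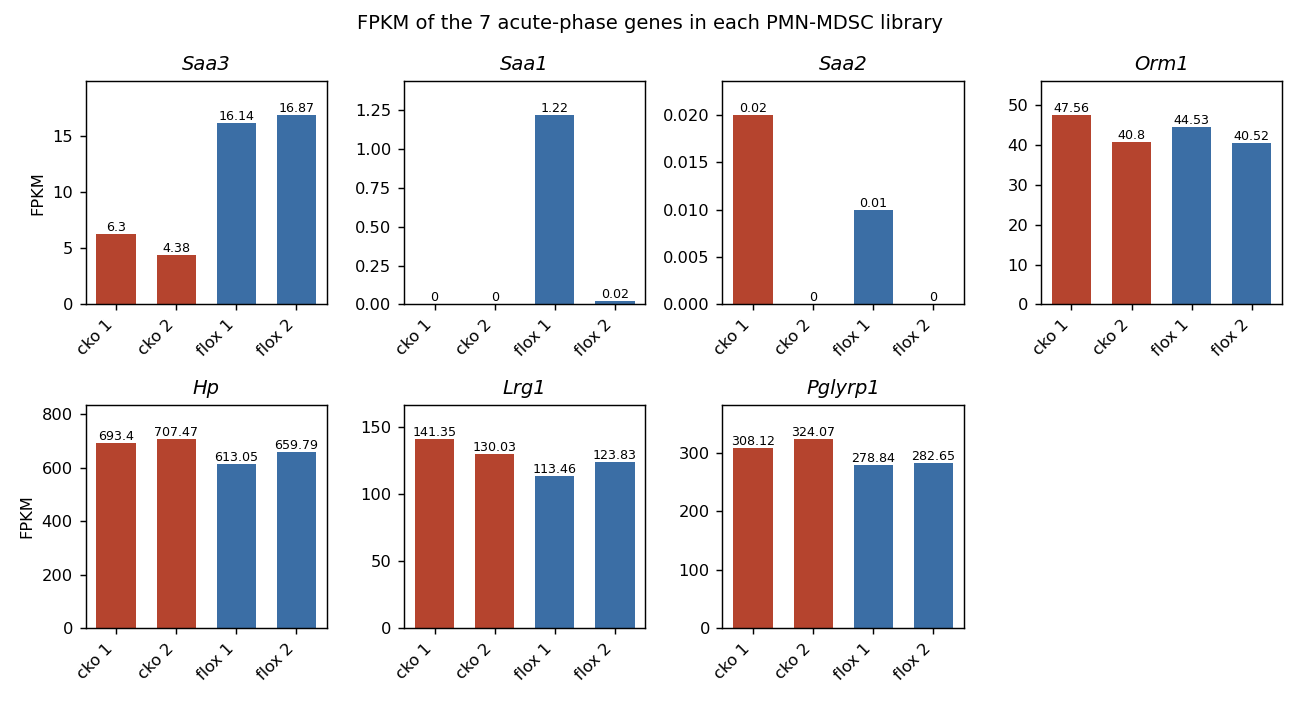
FPKM of the 7 acute-phase genes in each library (bars, 1 library each; red, Dhps cko; blue, Dhps flox; a separate axis from 0 for each gene). Saa3 is lower in both Dhps cko libraries, Saa1 is seen in 1 library, Orm1 overlaps, and Hp, Lrg1 and Pglyrp1 are slightly higher in both Dhps cko libraries.

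Of the 5 genes tested besides Saa3, 0 had an adjusted p under 0.05 with limma, where 0.00557% of all 17948 genes tested (1 gene) did, and 0 did when each gene was fitted alone. At an unadjusted p under 0.05, 2 were higher in Dhps cko (Lrg1 and Pglyrp1), where 4.72% of all genes were, and 0 were lower, where 2.28% were. Both Dhps cko libraries lay above both Dhps flox libraries for 3 of the 5, where 20.0% of all genes showed this, and below them for 1 (Saa1), where 16.0% did. The count for Saa1 carries no weight, since Saa1 passed the filter only through Dhps flox replicate 1. With 2 libraries on each side, 0.33 is the smallest p of an exact permutation test. These 5 genes had a median difference of 0.14 on the log2 scale, or 0.15 when Saa1 was left out, whereas all genes tested had one of 0.01. For the 330 genes averaging 100 FPKM or more, a level that Hp, Lrg1 and Pglyrp1 reach, the median was 0.07 and the central 95% ran from -0.12 to 0.24, which takes in all 3 values. None of Hp, Lrg1, Pglyrp1 and Orm1, the genes besides Saa3 with a measurable level in every library, was lower in both Dhps cko libraries.

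**Figure D3:**
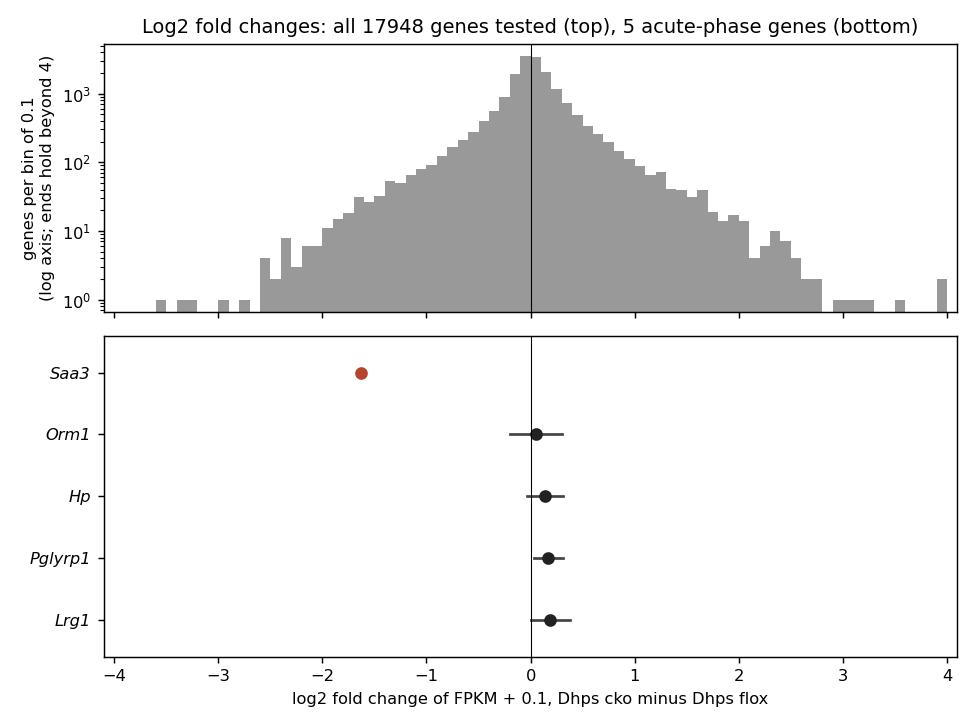
Distribution of log2 fold changes (Dhps cko minus Dhps flox, on FPKM + 0.1) over the 17948 genes tested (top, gene counts on a log axis) and the values of Saa3, Orm1, Hp, Pglyrp1 and Lrg1 (bottom, points with limma 95% intervals, none drawn for Saa3, which chose the set). Saa3 lies at -1.63, and the other 4 genes lie between 0.05 and 0.19.

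The order of levels was the same in all 4 libraries for the 5 genes that were measurable throughout: Hp, Pglyrp1, Lrg1, Orm1 and Saa3. No neighbours in this order overlapped over the libraries. The lowest Hp value was 613.05 FPKM and the highest of Pglyrp1 324.07, the lowest Pglyrp1 value 278.84 and the highest of Lrg1 141.35, and the lowest Lrg1 value 113.46 and the highest of Orm1 47.56. Orm1 in turn stayed above Saa3, at no less than 40.52 FPKM against at most 16.87. Saa1 and Saa2 could not be ordered.

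The wider acute-phase program was examined with 22 further genes, of which 18 had values and 13 passed the filter. With limma, the adjusted p was under 0.05 for 0 of the 13 and the unadjusted p for 1, which was higher in Dhps cko (4.72% of all genes were higher and 2.28% lower). Both Dhps cko libraries were higher for 3 genes and lower for 6, against 20.0% and 16.0% of all genes tested, and the median log2 fold change was -0.14. The 6 include Hpx, the hemopexin gene, at 0 and 0.08 FPKM in Dhps cko and 0.09 and 0.37 in Dhps flox, which passed the filter only through the Dhps flox libraries. Lcn2, the siderophore-binding lipocalin of neutrophil granules, was the most abundant, at 2219 and 2277 FPKM in Dhps cko and 1981 and 2069 in Dhps flox. C3, the central complement component, was at 508.98 and 476.63 FPKM in Dhps cko and 509.47 and 566.21 in Dhps flox. Lbp, which encodes a lipopolysaccharide-binding protein, was at 54.35 and 52.99 against 53.43 and 57.42 FPKM. The largest differences at a mean of at least 1 FPKM were those of Serpina3g, a serine protease inhibitor gene, at 1.56 and 1.22 FPKM in Dhps cko and 0.84 and 0.79 in Dhps flox (log2 fold change 0.69, adjusted p = 0.599), and of the pentraxin gene Ptx3, at 1.72 and 1.10 against 1.75 and 2.90 FPKM (log2 fold change -0.67, adjusted p = 0.766). The value of Ptx3 was -0.37 without Dhps cko replicate 2, -1.02 without Dhps flox replicate 1 and -0.32 without Dhps flox replicate 2. Fgb and Hamp, both typical of liver, were listed at 0 in all libraries.

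Of the cytokines that induce acute-phase genes and their receptors, 16 genes were tested. With limma 0 had an adjusted p under 0.05, while 2 were higher and 1 lower at an unadjusted p under 0.05 (4.72% and 2.28% of all genes), and the median log2 fold change was 0.00. Il6, which encodes the main inducer of acute-phase genes in liver, was at 0 and 0.06 FPKM in Dhps cko and 0.21 and 0.19 in Dhps flox, near the detection limit. It was the 1 gene lower at that threshold, but it passed the filter only through the Dhps flox libraries, where it was higher, so that count carries no weight. Tnf was at 22.75 and 22.47 FPKM in Dhps cko and 15.82 and 16.33 in Dhps flox (log2 fold change 0.49, standard error 0.061, adjusted p = 0.363). Osm, which encodes the interleukin-6 family cytokine oncostatin M, was at 26.37 and 23.99 FPKM in Dhps cko and 38.46 and 28.29 in Dhps flox (log2 fold change -0.39, adjusted p = 0.719). The value of Osm was -0.17 without Dhps flox replicate 1 and -0.61 without Dhps flox replicate 2. The groups of Tnf lay far apart relative to their spread, and those of Osm did so less. The receptor genes Tnfrsf1a and Tnfrsf1b had the highest levels of the list, with log2 fold changes of 0.12 and -0.01. That of Tnfrsf1a was 0.05 without Dhps flox replicate 1 and 0.20 without Dhps flox replicate 2.

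Of the 14 transcription factors and signal regulators, 0 had an adjusted p under 0.05 with limma, and 2 were higher and 1 lower at an unadjusted p under 0.05 (4.72% and 2.28% of all genes). Both Dhps cko libraries were higher for 3 and lower for 2 (20.0% and 16.0% of all genes), and the median log2 fold change was 0.05. Cebpe, a factor that granulocytes need to form secondary granules, was at 298.10 and 266.12 FPKM in Dhps cko and 234.71 and 246.82 in Dhps flox (log2 fold change 0.23, and 0.14 without Dhps cko replicate 1, adjusted p = 0.652). Nfkbiz, which encodes a nuclear IκB protein that acts with NF-kB, was at 10.57 and 10.48 FPKM in Dhps cko and 15.49 and 13.84 in Dhps flox (log2 fold change -0.47, adjusted p = 0.475). Socs3, the feedback inhibitor of interleukin-6 signalling, was at 6.68 and 6.11 against 4.85 and 5.46 FPKM (log2 fold change 0.31, adjusted p = 0.669). In this list Nfkbiz was the gene that was lower with Saa3 by the most, while Spi1 (log2 fold change 0.09) and Nfkbia (-0.01) overlapped between genotypes. The value of Spi1 was 0.01 without Dhps flox replicate 1 and 0.18 without Dhps flox replicate 2.

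Receptors and partners of the acute-phase proteins differed little between the genotypes, from -0.30 to 0.50 on the log2 scale. Of 20 genes tested, 0 had an adjusted p under 0.05 with limma, 2 were higher and 1 lower at an unadjusted p under 0.05 (4.72% and 2.28% of all genes), 8 were higher in both Dhps cko libraries and 3 lower (20.0% and 16.0% of all genes), and the median log2 fold change was 0.14. Fpr2, a formyl peptide receptor that also binds serum amyloid A, was at 323.00 and 363.90 FPKM in Dhps cko and 327.87 and 293.66 in Dhps flox, and the groups overlapped. Fpr1, the related receptor, was at 165.35 and 178.91 against 161.98 and 149.64 FPKM. Trem1, the receptor for which PGLYRP1 is a ligand, was at 50.35 and 52.98 FPKM in Dhps cko and 68.58 and 58.93 in Dhps flox (log2 fold change -0.30, and -0.19 without Dhps flox replicate 1, adjusted p = 0.616). Tyrobp, its signalling adaptor, lay on the other side, at 425.62 and 424.74 against 376.46 and 350.19 FPKM (log2 fold change 0.23, adjusted p = 0.568).

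Hp, Lrg1 and Pglyrp1 were set beside the granule genes of the stages at which neutrophils make them. The 16 secondary and tertiary granule genes had a median log2 fold change of 0.07, from -0.09 to 0.16, with 7 higher in both Dhps cko libraries and 1 lower (20.0% and 16.0% of all genes). With limma, 0 had an adjusted p under 0.05, and 1 was higher and 0 lower at an unadjusted p under 0.05 (4.72% and 2.28% of all genes). Ngp, the most abundant, was at 27902 and 27612 FPKM in Dhps cko and 27249 and 26339 in Dhps flox, Ltf (lactoferrin) had a log2 fold change of -0.02, and Camp (cathelicidin) one of 0.13. Under quantile scaling, Ngp turned to -0.03 and Ltf to 0.12. Cyba, which encodes a subunit of the NADPH oxidase, was at 382.14 and 368.94 against 328.26 and 343.78 FPKM (log2 fold change 0.16, adjusted p = 0.683). Hp, at 0.14, lay within the range of this list, and Pglyrp1 and Lrg1, at 0.17 and 0.19, lay just above it. The 6 primary granule genes had a median of 0.43, with 2 higher and 0 lower in both Dhps cko libraries (20.0% and 16.0% of all genes). With limma, 0 had an adjusted p and 0 an unadjusted p under 0.05 (4.72% of all genes were higher and 2.28% lower at the latter). Mpo (myeloperoxidase) was at 17.50 and 11.03 FPKM in Dhps cko and 7.56 and 11.13 in Dhps flox, and Elane (neutrophil elastase) at 23.82 and 13.86 against 9.76 and 15.37, both overlapping. Serpinb1a, which encodes an inhibitor of proteases such as elastase, was the most abundant of the list, at 225.97 and 225.51 against 210.15 and 202.80 FPKM.

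**Figure D4:**
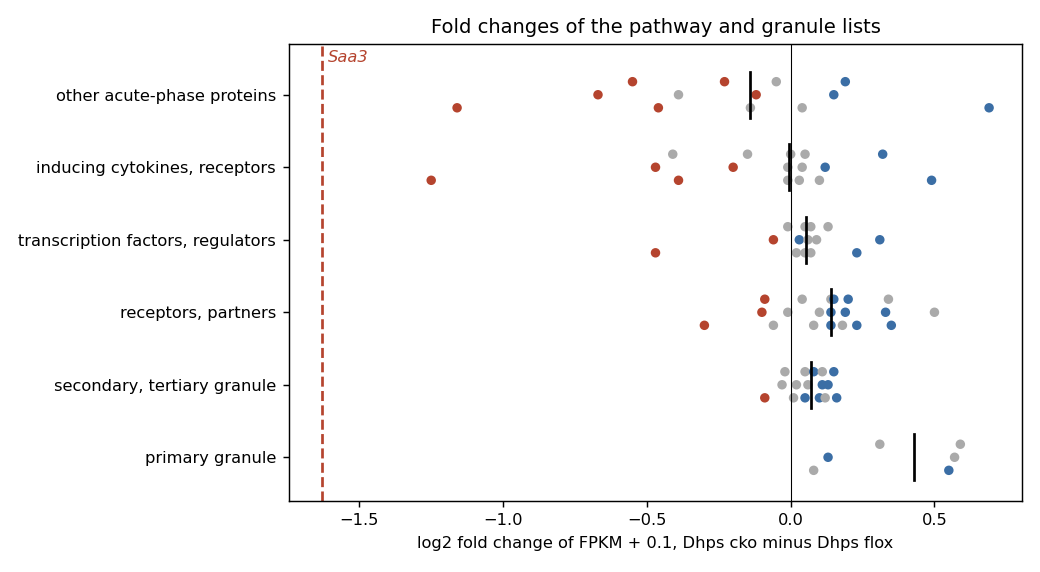
Log2 fold changes (Dhps cko minus Dhps flox, on FPKM + 0.1) of the genes tested in each list (points; red, both Dhps cko libraries lower; blue, both higher; grey, overlapping), with the median of each list (black bar) and, for orientation only, the value of Saa3 (dashed line, -1.63), which chose the set. The list medians lie between -0.14 and 0.43.

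Other cells that can express acute-phase genes were checked by their markers. The 15 monocyte and macrophage markers summed to 390 and 388 FPKM in Dhps cko and 319 and 315 in Dhps flox, with none at 0. Of the 15, 11 were higher in both Dhps cko libraries and 0 lower, where 20.0% and 16.0% of all genes were. With limma, 7 had an unadjusted p under 0.05, all higher in Dhps cko (4.72% of all genes), and 0 an adjusted p under 0.05. The adipocyte markers, of which 5 of 6 passed the filter, summed to 3.16 and 3.17 FPKM in Dhps cko and 1.9 and 2.44 in Dhps flox, and the fibroblast and endothelial markers to 34.9 and 30.1 against 26.3 and 32.5. The hepatocyte markers summed to 7.97 and 5.51 FPKM in Dhps cko and 3.26 and 2.79 in Dhps flox, most of it from Apoa1, a gene also expressed by intestine. Albumin (Alb) did not exceed 0.14 FPKM, and Fgb and Serpina1b were at 0 throughout. The B cell, T cell and erythroid marker lists summed to 66.1 and 68.4, 18.5 and 15.0, and 735 and 881 FPKM in Dhps cko, and to 41.9 and 51.5, 11.9 and 8.01, and 608 and 916 in Dhps flox. The part of these cells in the values of the 7 genes was not tested.

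The sexes of the pups are not in the labels. Uty, Kdm5d, Ddx3y and Eif2s3y, which lie on the Y chromosome, summed to 7.07 and 8.07 FPKM in Dhps cko and 17.64 and 15.62 in Dhps flox, a ratio of 45.5%. Both Dhps cko libraries lay below both Dhps flox libraries in this sum, so sex and genotype cannot be told apart for Saa3 or for the small differences in Hp, Lrg1 and Pglyrp1.

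Among 10628 other genes that averaged 1 FPKM or more, the pattern over the 4 libraries that was most like that of Saa3 belonged to Mir23a, Gm37352, Lyz2, Mir6996 and Mir27a. Likeness was measured as the Euclidean distance between log2(FPKM + 0.1) values centred on the mean of each gene, and ran from 0.312 to 0.498 for these 5. A gene with equal values in all libraries would lie at 1.67, the size of the Saa3 pattern itself, and the median over all genes was 1.69. Mir23a, a microRNA precursor gene, was at 2.95 and 2.13 FPKM in Dhps cko and 7.67 and 6.32 in Dhps flox. Lyz2, the lysozyme gene that carries the Cre insertion in Dhps cko only, was at 2245 and 2380 FPKM in Dhps cko and 6874 and 6544 in Dhps flox, and its Dhps cko mean was 34.5% of the Dhps flox mean. Mir27a was at 5.06 and 5.22 against 15.74 and 12.91 FPKM, and the unclassified gene model Gm37352 at 1.82 and 1.61 against 6.88 and 5.4. Mir6996, which lies within Notch1 on the same strand, was at 1.06 and 1.07 against 3.12 and 2.88 FPKM. It spans only bases 26470059 to 26470119 of chromosome 2, and Mir23a only 84208518 to 84208592 of chromosome 8. The FPKM of these short genes therefore rest on few fragments. The part of Notch1 reads in the value of Mir6996 was not tested. Of the 5, 3 (Mir23a, Mir27a and Gm37352) lie within 7.9 kb on chromosome 8, and this stretch ends 863 kb before the start of Dhps. The likeness rests on 4 libraries, and in all 5 genes it is chiefly the same difference between genotypes by which Saa3 was chosen.

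With 1 library left out at a time, the log2 fold change of Saa3 ranged from -1.89 without Dhps cko replicate 1 to -1.38 without Dhps cko replicate 2. Its sign is fixed by the way Saa3 was chosen and cannot turn in this step. Under the 14 alternatives Lrg1 lay at 0.13 to 0.26 and Pglyrp1 at 0.10 to 0.21, higher in Dhps cko throughout. For both genes the Dhps cko libraries all lie above the Dhps flox libraries, so only the other scalings could have turned their sign. Orm1 was at -0.06 without Dhps cko replicate 1 and at -0.02 without Dhps flox replicate 2.

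**Figure D5:**
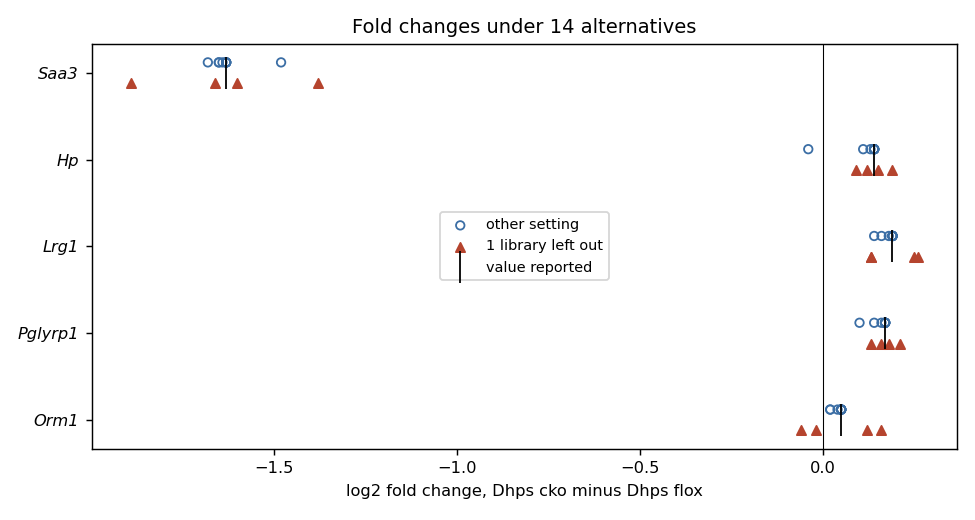
Log2 fold changes (Dhps cko minus Dhps flox) of Saa3, Hp, Lrg1, Pglyrp1 and Orm1 as reported (black bars), with 1 library left out (triangles) and under the other 10 settings (circles). Saa3 stays between -1.89 and -1.38, apart from the other 4 genes, which stay between -0.06 and 0.26.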

How the data were processed

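Libraries were made from PMN-MDSCs of neonatal spleen. The authors filtered reads with Cutadapt, aligned them with HISAT2 (mm10 per the labels) and computed deposited FPKM per gene with StringTie and ballgown, rounded to 2 decimals. The annotation, the strand setting and any scaling between libraries are not given in the sources used here. FPKM hold no read counts. Steps between low values of single-exon genes (200 to 1500 bases) gave approximate depths, with 38.0% to 39.5% of low values within 0.15 of a whole step (30% by chance), and whole reads could therefore not be recovered, which makes fragment numbers approximate. Coordinates came from GENCODE M21 (GRCm38), which held 28511 of 28585 identifiers.

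The genotypes were tested against each other in limma 3.58.1 (R 4.3.3, mean-variance trend, no replicate block) on log2(FPKM + 0.1) for the 17948 genes averaging 0.1 FPKM or more, with Benjamini-Hochberg adjustment over all of them. Fold changes on this scale understate those of low genes. The fit was tested on simulated data. The 7 genes, the lists and the motifs were chosen with earlier results of these data known. Genes named were the 7, Dhps, Lyz2, the 5 most like Saa3, the 3 most abundant and 2 most different (mean of at least 1 FPKM) of each pathway list, and the most abundant of each marker list. Others (Orm2, Orm3, Il6, Fgb, Hamp, Alb, Serpina1b, Saa4, Hpx, Epcam, Krt8, Cdh1, Fabp1, Fabp2, Alpi, Apoa4, Reg3b, Y-linked genes) were named after their values were seen. Alternatives were other pseudocounts (0.01 and 1), filters, scalings and variance models, a replicate block, and leaving out each library. Listed genes without a row in the tables were not analysed here. Figures used Python 3.11.15 with matplotlib 3.10.9.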

Additional observations from a re-analysis of the deposited data

How the results depend on the processing

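Of 68 values of the other acute-phase genes under 14 alternatives, 65 kept their direction. The exceptions were Hp under quantile scaling (-0.04) and Orm1 without Dhps cko replicate 1 (-0.06) and without Dhps flox replicate 2 (-0.02), and the cause was not tested. Many of these directions were fixed in advance. The filters, variance models and replicate block leave a fold change as reported. A left-out library or another pseudocount cannot turn a gene whose groups do not overlap, so the count is no measure of stability. Orm1 was highest, at 0.16, without Dhps cko replicate 2. None of these genes passed the threshold, with adjusted p from 0.58 to 0.986 (limma) with all libraries. With 1 library left out, 1 group holds a lone library that is assumed to vary like the other group, so p-values and counts of calls there say nothing about stability. Saa3 ran from -1.68 to -1.48 under the settings with all libraries and from -1.89 to -1.38 with 1 left out. The median of the genes tested besides Saa3 was 0.15 with the filter at 1 FPKM, which removes Saa1, 0.11 with TPM scaling, 0.02 with quantile scaling, and 0.13 to 0.18 with 1 library left out. Saa1 gave no value without Dhps flox replicate 1 or with the filter at 1 FPKM.

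The count of genes past the threshold, 1 as reported, was 0 with a pseudocount of 0.01, 0 without a filter, 4 with the filter at 1 FPKM, 2 with TPM scaling, 2 with quantile scaling, 12 with each gene alone, and 0 to 0 with 1 library left out. With the replicate number as a block it was 0. The labels link same-numbered replicates only by that number, and the paper calls the pups littermates without pairing libraries. Deviations of same-numbered libraries had a Pearson r of -0.06 over 10629 genes. Since both genotypes hold the same replicate numbers, the block cannot alter a fold change, and the unchanged directions say nothing here. Of 574 values of 41 other named genes, 4 passed the threshold where the reported value had not: Lyz2 with the filter at 1 FPKM (adjusted p = 0.00869, limma), TPM scaling (0.0465) and quantile scaling (0.0084), and Mir27a with the filter at 1 FPKM (0.0441). Direction changed in 12, which were Ltf (0.12) and Ngp (-0.03) under quantile scaling, Ltf (0.00) and Ms4a3 (-0.05) without Dhps cko replicate 1, Hbb-bs (-0.02), Nfkbia (0.05) and Tnfrsf1b (0.02) without Dhps cko replicate 2, Hbb-bs (-0.10) and Lgals4 (0.05) without Dhps flox replicate 1, and Lbp (0.01), Nfkbia (0.02) and Tnfrsf1b (0.09) without Dhps flox replicate 2. At the other end with 1 library left out were Hbb-bs at 0.41, Lgals4 at -0.79, Ms4a3 at 0.20 and Tnfrsf1b at -0.11.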
